A study of Caenorhabditis elegans with 2 samples.

Results

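Germline and meiosis genes were examined as a group of 41 Caenorhabditis elegans genes, chosen by symbol from the 19973 protein-coding genes of the nuclear genome, and they were read for binding of the homeodomain protein CEH-27 near their 5' ends. By function they comprised 9 genes of P granules and small RNA pathways, 10 genes of RNA control, the germline stem cell receptor gene glp-1, 9 genes of meiotic chromosomes and 12 genes of oocytes and maternal RNA. The data were ChIP-seq of whole young adults of strain OP139, grown for 73 hours after the hatched larvae had been starved following bleaching. These worms carry wgIs139, a fosmid copy of ceh-27 with TY1, EGFP and 3xFLAG tags at its C terminus and an unc-119(+) marker, in an unc-119(ed3) background. The sexes were pooled, and sonicated chromatin of 200 to 800 (the unit is not in the labels) was used. The immunoprecipitation used anti-GFP according to the sample description, while the antibody field reads ceh-27. The study held a single group, in which replicates 1 and 4 made up the 2 biological samples, and no second genotype or stage, so no contrast between conditions existed. The tagged protein was made from a transgene in a single strain, and the chromatin came from all tissues of the animal, so germline and somatic nuclei cannot be told apart.

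In this worm the germline of the adult gonad runs from dividing stem cells through meiotic prophase to oocytes or sperm. P granules are condensates of RNA and protein at the germline nuclei and hold Vasa-type helicases and the Argonaute proteins of small RNA pathways. Much of germline gene control acts on messenger RNA after transcription, through repressors, poly(A) polymerases and RNA-binding proteins of the PUF, Nanos and zinc finger families, and maternal RNAs made in the oocyte are translated in the embryo. In meiosis, sister chromatids are held together by cohesin and carry axis proteins. Homologous chromosomes are joined by the synaptonemal complex, and SPO-11 cuts their DNA to start recombination.

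A region list gives places where immunoprecipitated DNA piled up, each with a summit, the position of its highest point, and the authors' signal value. That signal has no stated scale and was compared only within 1 list, mostly as a rank, where rank 1 is the strongest region. The reproducible list held 2328 regions that had passed the authors' irreproducible discovery rate (IDR) filter for agreement between replicates, with signals from 91.73 to 1263 and a median of 134.6. The lists of replicate 1, replicate 4 and both replicates pooled held 30000 regions each, so they were capped and also hold background. A promoter summit is one lying at most 1000 bp before or 200 bp after a 5' end annotated for the gene. Read depth is unknown because the lists hold no counts. Over both genes of the transgene, ceh-27 had no promoter summit in any list and unc-119 had a weak one in the pooled list, at rank 10961.

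Of the 41 germline and meiosis genes, 4 (9.76%) had a reproducible promoter summit, against 1691 of all 19973 genes (8.47%). The 4 were cgh-1, nos-3 and car-1 of RNA control and spn-4 of the oocyte and maternal genes. A share this near the background is no result about the list as a whole. No gene of the list lies on chromosome X, which holds 13.7% of all genes, and the background over autosomal genes was 8.35%. By function, RNA control had 3 of 10 genes with such a summit (30.0%) and the oocyte and maternal genes 1 of 12 (8.33%). The counts were 0 of 9 for P granules and small RNA, 0 of 9 for meiosis and 0 of 1 for glp-1. Functions of this size hold too few genes to be set apart, and no difference between them was tested.

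The DNA under 3 of these summits is given below, 101 bases centred on the summit on the strand of the gene, read 5' to 3' from build WBcel235 (the assembly of ce11, in RefSeq). The windows are nos-3 at chrII:9746194-9746294 on the plus strand, cgh-1 at chrIII:7498528-7498628 on the minus strand and spn-4 at chrV:6785247-6785347 on the minus strand. The window of spo-11 at chrIV:11125364-11125464, on the minus strand, is shown beside them as the strongest pooled promoter summit among the 41 genes that was not in the reproducible list. Capitals mark AAGTG or its reverse complement CACTT, letters found in known binding sites of homeodomain proteins of the NK-2 class, to which CEH-27 belongs.
nos-3: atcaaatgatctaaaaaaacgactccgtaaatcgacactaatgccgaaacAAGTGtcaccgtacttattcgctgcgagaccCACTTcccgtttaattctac
cgh-1: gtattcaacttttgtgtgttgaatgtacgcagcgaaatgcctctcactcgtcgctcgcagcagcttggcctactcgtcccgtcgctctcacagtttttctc
spn-4: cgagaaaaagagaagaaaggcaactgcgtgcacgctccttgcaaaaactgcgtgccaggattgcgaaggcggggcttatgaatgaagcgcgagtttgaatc
spo-11: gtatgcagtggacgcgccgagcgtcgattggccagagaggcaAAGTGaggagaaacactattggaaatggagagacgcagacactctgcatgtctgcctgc

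AAGTG on either strand occurred in 2 of the 4 windows of the genes with a reproducible promoter summit, nos-3 and car-1, each with 2 matches, and not in the windows of cgh-1 or spn-4. Of all 2328 reproducible summit windows of the same length 27.1% held it, and of all 30000 pooled windows 24.1%. Among the other 14 genes whose strongest promoter summit was in the pooled list only, 1 window (7.14%) held the letters, that of spo-11. In the promoter sequence from 250 bases before to 50 after the gene start, 17 of the 41 genes (41.5%) held AAGTG, against 50.4% of all genes. These matches describe letters, not sites. G and C made up 51.5% of the cgh-1 and spn-4 windows, 46.5% of the car-1 window and 41.6% of the nos-3 window, against a median of 49.5% over all reproducible windows.

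cgh-1 encodes a DEAD-box RNA helicase that stores and protects maternal messenger RNA, and it had the strongest summit of the list. Its signal ranked 402 in replicate 1 (83.33) and 715 in replicate 4 (114.5), and 586 in the pooled list (191.2). The region was thus among the strongest 2328 of every list, and the replicate summits lay 31 and 36 bp from the pooled one. The reproducible region spans chrIII:7498550-7498642, only 93 bp, in intergenic DNA with its summit 746 bp upstream of cgh-1. No other gene's promoter held it, and the next gene upstream, C07H6.9, points the same way with a gap of 915 bp. A second pooled summit 226 bp upstream ranked 25834.

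nos-3 encodes a Nanos-family protein that acts with the FBF repressors in the switch from sperm to oocytes. Its region, chrII:9746072-9746415, had its summit 72 bp upstream of the gene, and its signal ranked 1374 in the pooled list (123.2). The replicates differed, with rank 4393 in replicate 1 (29.58) and rank 1125 in replicate 4 (90.41), and the authors' −log10 q was 1.384 in replicate 1 and 3.425 in replicate 4. Among the 4 genes this was the least even pair of ranks, although the summits lay within 28 bp of the pooled one. The same summit was 166 bp upstream of Y53C12B.1, which is transcribed away from nos-3 across a gap of 237 bp, so the summit cannot be given to 1 of the pair.

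car-1 encodes an Sm-like protein found with CGH-1 in RNA granules of the germline. Its summit, in the region chrI:12903944-12904287, lay 354 bp upstream and ranked 1011 in replicate 1 (56.09), 2263 in replicate 4 (62.27) and 1643 in the pooled list (112.2). Both replicates placed it inside their strongest 2328, with summits 7 and 2 bp from the pooled position. It was also in the promoter of coa-5, 667 bp away on the other side.

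spn-4 encodes a maternal RNA-binding protein that controls translation in the early embryo. The summit in chrV:6785125-6785468 was 394 bp upstream of it and ranked 2782 in replicate 1 (35.45), 2066 in replicate 4 (64.86) and 1675 in the pooled list (110.9). The replicate 1 rank was just outside the strongest 2328, and the summits were 16 and 0 bp from the pooled one. The nearest 5' end was not that of spn-4 but of spe-39, a trafficking gene needed for sperm development, at 154 bp across a shared gap of 547 bp.

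All 4 summits were intergenic and none lay within 200 bp of a small RNA gene. The signal of cgh-1 was above the median of the reproducible list and the other 3 were below it. The median over the 4 genes was 117.7, against 147.0 over the strongest promoter summits of all 1691 genes with one, and the distance from the 5' end had a median of 374 bp, against 252 bp. Of the 4 summits, 3 lay in promoters of more than 1 gene, as did 9 of 17 summits of the other germline genes described below. Over the genome it was 406 of 1317 reproducible promoter summits (30.8%), each counted once. Summits reached through a list of genes favour shared ones, since several genes lead to them, so these shares are not alike. The upstream neighbour lay on the other strand, pointing away, in 25 of the 41 genes (61.0%), against 45.4% of all genes. The median gap to that neighbour was 529 bp, against 1156 bp over all genes, and whether this bears on the sharing was not tested.

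**Figure D1:**
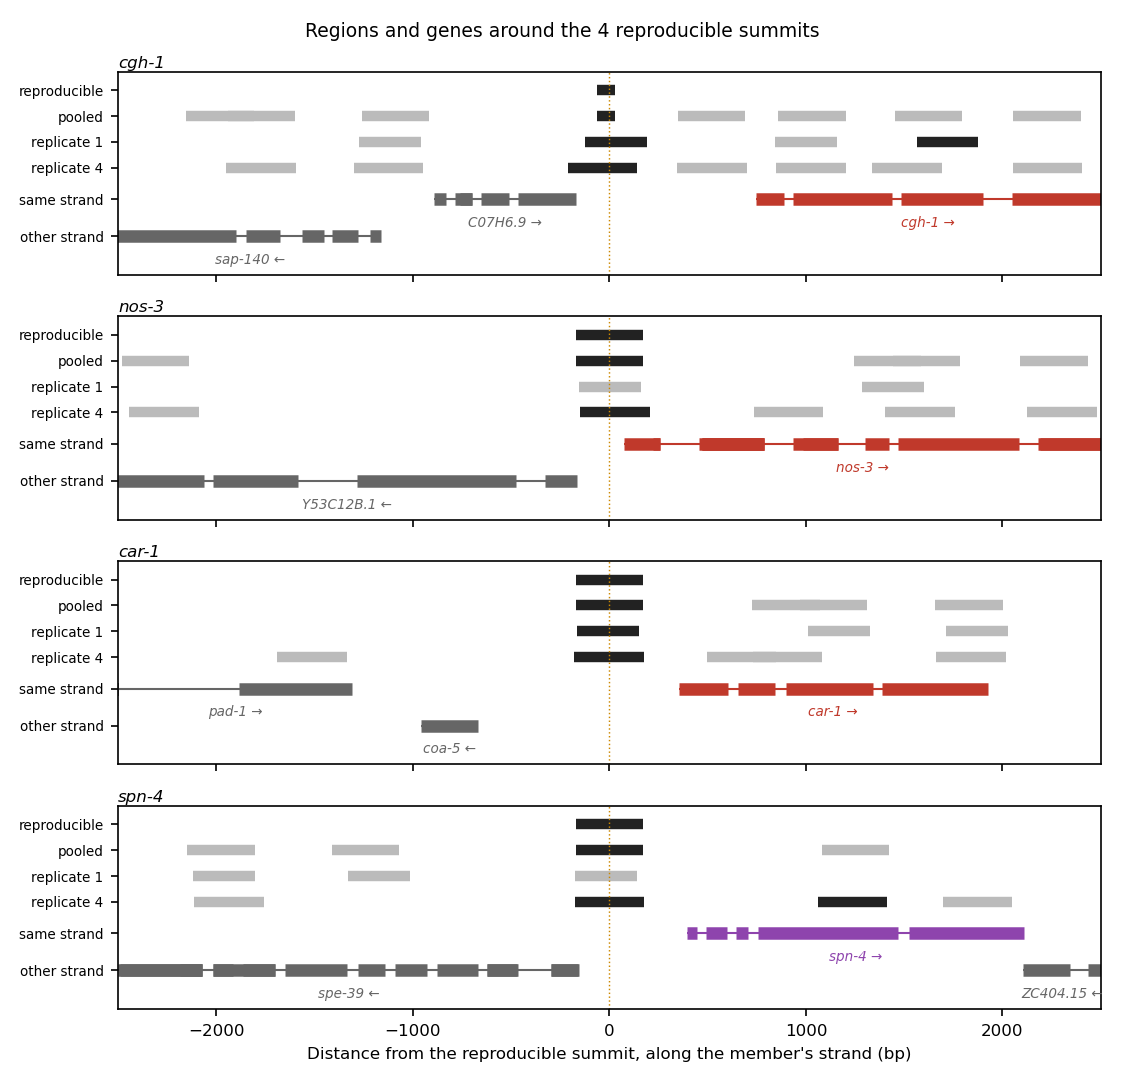
Regions in the 4 lists within 2500 bp of the reproducible summits of cgh-1, nos-3, car-1 and spn-4, with the position relative to the summit (bp) on the x axis; black bars rank within the strongest 2328 of their list, grey bars are weaker, and genes are drawn by strand. nos-3 and spn-4 have a grey bar at the summit in replicate 1 (ranks 4393 and 2782), while cgh-1 and car-1 are black in all lists.

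Counting every region of the capped lists, 18 of the 41 genes (43.9%) had a pooled promoter summit, against 39.2% of all genes. Replicate 1 listed 23 (56.1%), against 42.6%, and replicate 4 listed 18 (43.9%), against 37.8%. In both replicates there were 15 (36.6%), against 26.4%, but summits of the replicates lay within 100 bp of each other in only 6 (14.6%), against 17.7%. Those 6 were the 4 genes above with htp-3 and spo-11. In 15 genes (36.6%) neither replicate had a promoter summit, against 45.9% of all genes. The strongest pooled promoter summit had a median rank of 9661.5 over the 18 genes, against 9480 over the 7820 genes with one. With 500 bp upstream the median was 17188, against 9510.5, and with only the 5' end of the gene record 7064, against 9670, so its side of the background depended on the window.

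**Figure D2:**
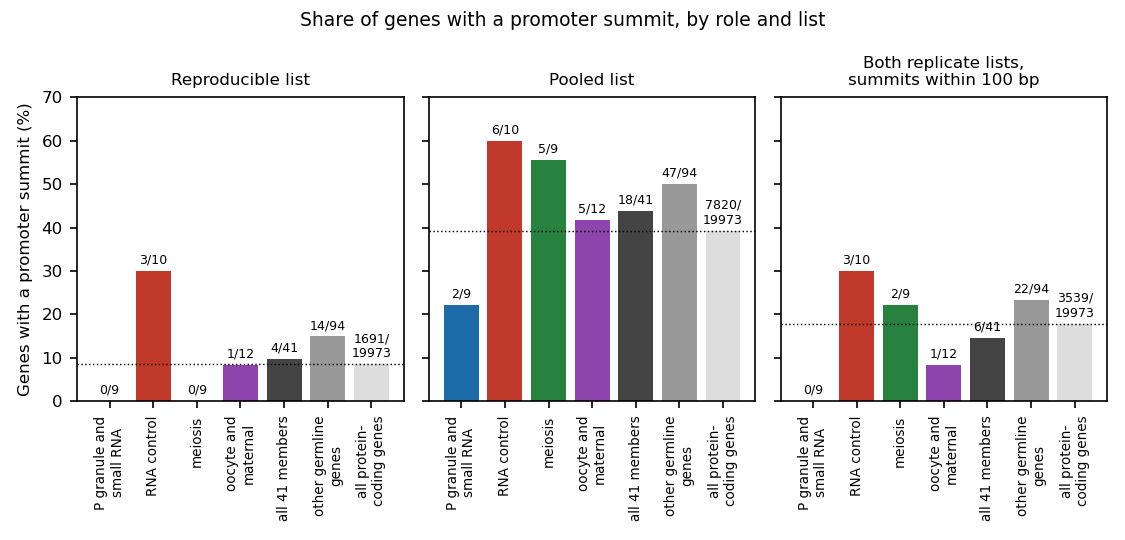
Percentage of genes with a promoter summit (y axis) in the reproducible list, the pooled list and both replicates within 100 bp, for each function, all 41 genes, the other germline genes and all 19973 genes (dotted line). The bars over all 41 genes (9.76, 43.9 and 14.6%) lie near the dotted lines (8.47, 39.2 and 17.7%), and RNA control has the tallest bar among the functions with more than 1 gene in each panel.

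Among the P granule and small RNA genes, 2 of 9 had a pooled promoter summit. pgl-3, which encodes a P granule scaffold protein, had its stronger one 194 bp downstream of a 5' end in its own 5' untranslated sequence. That summit had signal 74.06 at rank 3498. A second lay 583 bp upstream, in the 3' untranslated sequence of hil-4, at rank 5505. Replicate 4 had a summit within 32 bp of the stronger one, at rank 7225 (37.93), and one within 21 bp of the second, at rank 4010 (48.29). Replicate 1 had a summit 7 bp from the stronger one, at rank 2880 (34.91), which fell just past the downstream edge of the window and so was not counted as a promoter summit, and another 462 bp upstream at rank 7499 (24.56). pgl-3 was thus listed at the start of its transcript in all 3 capped lists. deps-1, a gene for P granule assembly, had summits about 586 bp upstream in the pooled list (29.88, rank 24124) and within 2 bp of it in replicate 4 (24.08, rank 19437). The pooled one lay in coding sequence of Y65B4BL.4, 363 bp from a 5' end of that gene. The strongest replicate 1 summit of deps-1, at rank 6675 (25.49), was elsewhere, 831 bp from the pooled one.

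The remaining P granule genes had weak or no promoter summits. pgl-1, the other scaffold gene, shares a gap of 189 bp with him-3, and both had the same replicate 1 summit at rank 6896 (25.23), absent from replicate 4 and the pooled list. Of the Vasa-related helicase genes, glh-1 was listed in replicate 4 only, at rank 24546, and glh-3 ranked 26771 in replicate 1 and 19960 in replicate 4 at separate positions. glh-2, glh-4, the Piwi gene prg-1 and the Argonaute gene csr-1 had no promoter summit in any list.

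Beside its 3 genes with a reproducible summit, RNA control had 3 with a pooled one. gld-3, a Bicaudal-C relative that partners the poly(A) polymerase GLD-2, ranked 11405 in the pooled list (43.82) and 4476 in replicate 4 (46.07) and was absent from replicate 1. Its summit lay 482 bp upstream, but only 129 bp from T07F8.4. gld-2, the poly(A) polymerase gene with 6 annotated 5' ends and hence a wide window, held 5 pooled summits, the strongest at rank 20676 (32.78). The strongest summits of the replicates, at rank 9935 in replicate 1 (22.2) and 6433 in replicate 4 (39.77), were at another 5' end, 10270 and 10513 bp from it. Pooled regions of gld-2 overlapped both of these, at rank 29499 (25.97) for replicate 1 and rank 21023 (32.47) for replicate 4. Replicate 4 also had a weaker region overlapping the strongest pooled one, at rank 19061 (24.36), while replicate 1 had no promoter summit there. The distances thus partly reflect which summit was strongest in each list. nos-1 ranked 25184 in the pooled list (29.09) and 29124 in replicate 1 (13.89) and was absent from replicate 4. Its pooled summit, 833 bp upstream, lay in coding sequence of R03D7.8. The translational repressor gene gld-1, the PUF genes fbf-1 and fbf-2, and nos-2 had none in any list. fbf-1 and fbf-2 are close copies, and how reads that match both were handled is not given in the sources used here, so their absence is uncertain. glp-1, the Notch receptor that keeps germline stem cells dividing, also had none.

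The meiotic genes had no reproducible promoter summit but 5 of 9 had a pooled one, and the same 5 were listed in both replicates. spo-11, the gene of the nuclease that makes the meiotic breaks, came closest to the reproducible list, whose lowest signal was 91.73. It ranked 3020 in the pooled list (79.77), 13084 in replicate 1 (20.04) and 2308 in replicate 4 (61.68). Replicate 4 alone thus put it inside its strongest 2328. The summit lay 552 bp upstream, and swsn-4, a gene of the chromatin remodelling complex SWI/SNF, was 610 bp away on the other side.

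syp-2, a gene for a central protein of the synaptonemal complex, ranked 4850 in the pooled list (63.07), 15868 in replicate 1 (18.54) and 11187 in replicate 4 (31.75), with the replicate 4 summit 152 bp from the pooled one. Its pooled summit, 282 bp upstream, lay in coding sequence of cox-16, 15 bp from the 5' end of that gene. htp-3, which encodes a HORMA-domain protein of the chromosome axis, ranked 6210 in the pooled list (56.63), 10254 in replicate 1 (21.95) and 8143 in replicate 4 (36.17), 648 bp upstream and within coding sequence of its neighbour tofu-4. The strongest pooled summits of syp-2 and htp-3 thus sat inside neighbouring genes, as did those of deps-1, nos-1, htp-2, rec-8 and puf-3. syp-2 and htp-3 each also had a weaker pooled summit near their own 5' ends. For syp-2 it was 17 bp upstream in intergenic DNA (rank 20650). For htp-3 it was 106 bp downstream in its own intron (rank 17188), with summits nearby in replicate 1 (rank 23903) and replicate 4 (rank 19289). htp-2, a second axis gene, ranked 7918 in the pooled list (51.43), 6737 in replicate 1 (25.42) and 8377 in replicate 4 (35.79), with the replicate 1 summit 110 bp from the others. Its pooled summit lay in an intron of Y73B6BL.23, 221 bp from a 5' end of that gene.

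rec-8, a gene of meiotic cohesin, ranked 12824 in the pooled list (41.69), with a summit 876 bp upstream in coding sequence of mex-5, which lies head to head with it. In replicate 4 it ranked 11248 (31.67), with a summit 97 bp from the pooled one. The strongest replicate 1 summit, at rank 9256 (22.78), was inside rec-8 at an internal 5' end, 4617 bp from the pooled one. Replicate 1 also had a weaker summit 727 bp upstream, at rank 26532 (14.63). A weaker pooled summit at rank 20219 (33.21), 60 bp upstream of rec-8 and 470 bp upstream of mex-5, was in the promoters of both. him-3 and syp-3 were listed in replicate 1 only, and htp-1 and syp-1 in no list. htp-1 and htp-2 are close copies, and the same limit on shared reads holds for them.

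Of the oocyte and maternal genes, 5 of 12 had a pooled promoter summit, with spn-4 far ahead. mex-3, a KH-domain repressor of maternal RNA, ranked 14752 in the pooled list (39.01), 155 bp downstream of a 5' end, and 13401 in replicate 4 (29.24), 4 bp from there. Its replicate 1 summit, at rank 26943 (14.51), was at another 5' end, 5748 bp away. mex-5, a zinc finger gene of embryonic polarity, ranked 20219 in the pooled list, 470 bp upstream, and 26532 in replicate 1 (14.63), 667 bp from there, and was absent from replicate 4. The lists thus did not place the promoter summits of mex-3 and mex-5 alike. For mex-5 the window edge entered into this. The replicate 1 summit was 197 bp downstream of the 5' end, just inside the edge. A pooled summit 346 bp downstream (rank 12824) and a replicate 4 summit 443 bp downstream (rank 11248) were past the edge and not counted. puf-11 ranked 21178 in the pooled list (32.32) and 8278 in replicate 1 (23.71), 28 bp apart, while its replicate 4 summit at rank 27708 (19.23) was 396 bp away. puf-3 ranked 25806 in the pooled list and 10287 in replicate 1, 174 bp apart, and was absent from replicate 4. Its pooled summit lay in an intron of afmd-2, 179 bp from a 5' end of that gene and 349 bp from that of puf-3. None of these summits passed the authors' filter for agreement between replicates.

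puf-3 and puf-11 encode closely related PUF proteins of the oocyte, and the DNA around their pooled summits is also alike. The puf-3 window, chrIV:13512461-13512561 on the minus strand, and the puf-11 window, chrIV:6421172-6421272 on the plus strand, aligned over 48 positions with 38 identical bases (79.2%). They are shown here because alike DNA can share reads between copies, and whether these windows shared any reads was not tested.
puf-3: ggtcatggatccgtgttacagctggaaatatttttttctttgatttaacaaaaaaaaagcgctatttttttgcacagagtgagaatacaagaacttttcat
puf-11: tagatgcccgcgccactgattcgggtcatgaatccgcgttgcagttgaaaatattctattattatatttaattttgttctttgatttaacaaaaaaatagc

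oma-2, a zinc finger gene of oocyte maturation, was listed in replicate 1 only at rank 9551, and so was the PUF gene puf-5 at rank 13723. pie-1, which keeps transcription silent in germline blastomeres, was listed in replicate 4 only, at rank 11908. That summit was 162 bp downstream of an internal 5' end, not of the start of the gene. oma-1, mex-6, pos-1 and the yolk receptor gene rme-2 had no promoter summit in any list. Distances to the nearest reproducible summit showed that some of the 37 genes without one lay near such a region. It was 1191 bp downstream of an internal 5' end of pie-1, 1647 bp upstream for pgl-3, 2386 bp downstream for oma-1 and 2552 bp upstream for syp-1. In each case it lay outside the gene itself. Over all 41 genes the median distance was 16130 bp, against 17633 bp over all genes, and puf-3 was farthest at 116744 bp.

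**Figure D3:**
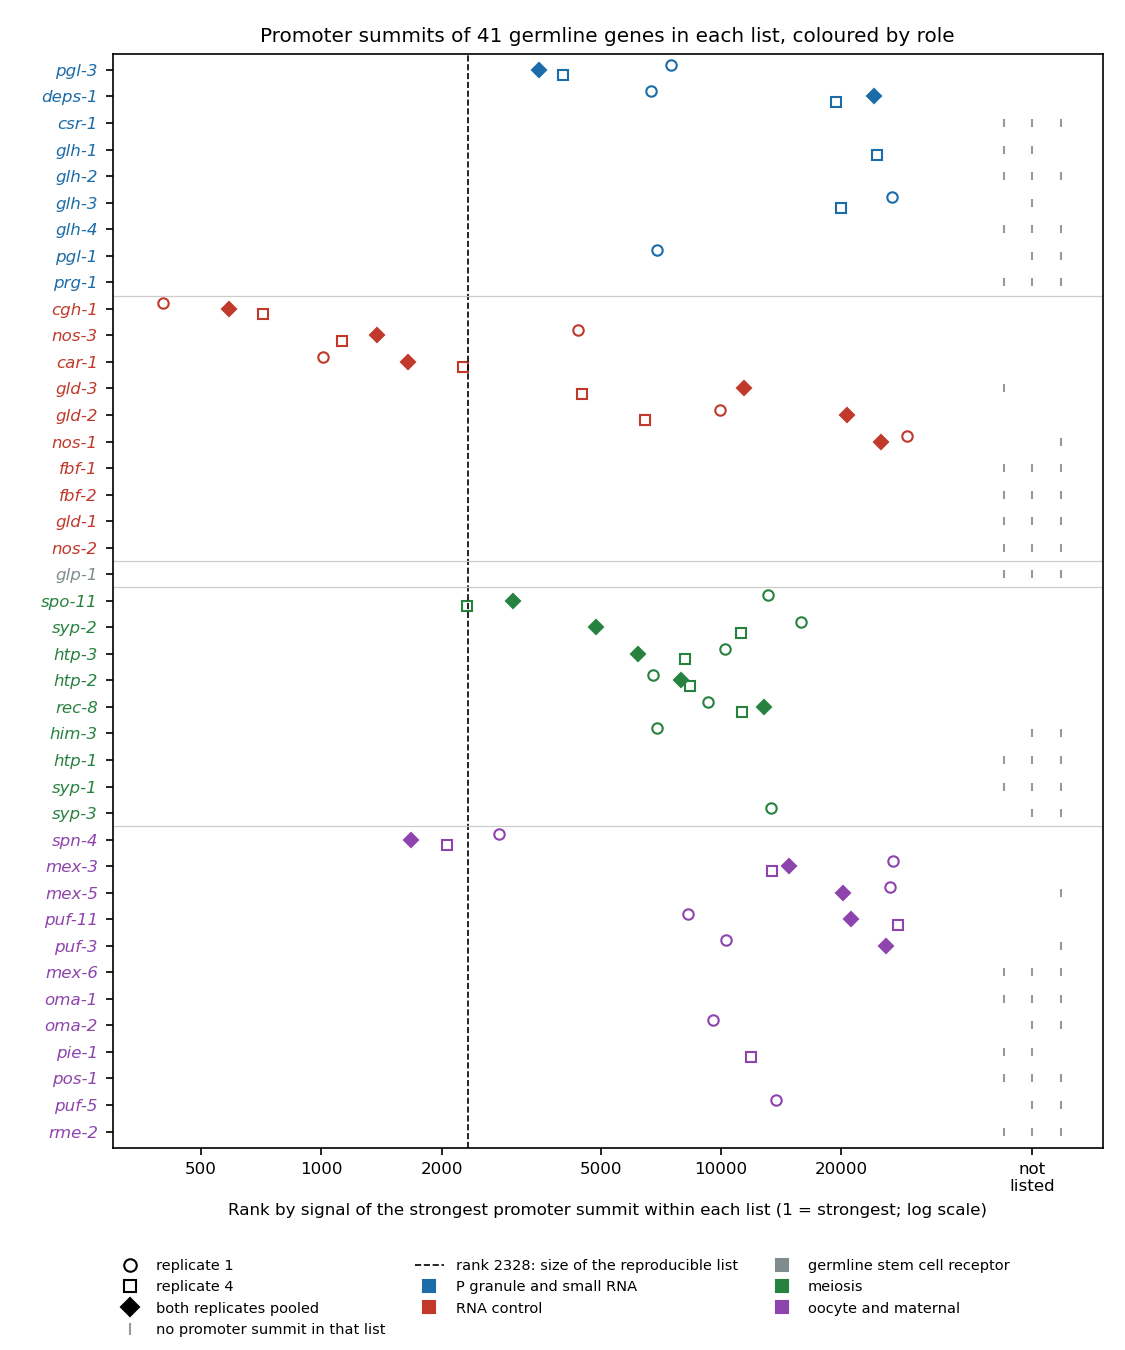
Rank of the strongest promoter summit of each of the 41 genes (x axis, log scale, 1 is strongest) in replicate 1 (circles), replicate 4 (squares) and the pooled list (filled diamonds), coloured by function, with marks at the right for genes not listed and a dashed line at rank 2328. Pooled diamonds left of the line belong to cgh-1, nos-3, car-1 and spn-4, and spo-11 at 3020 is the next.

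**Figure D4:**
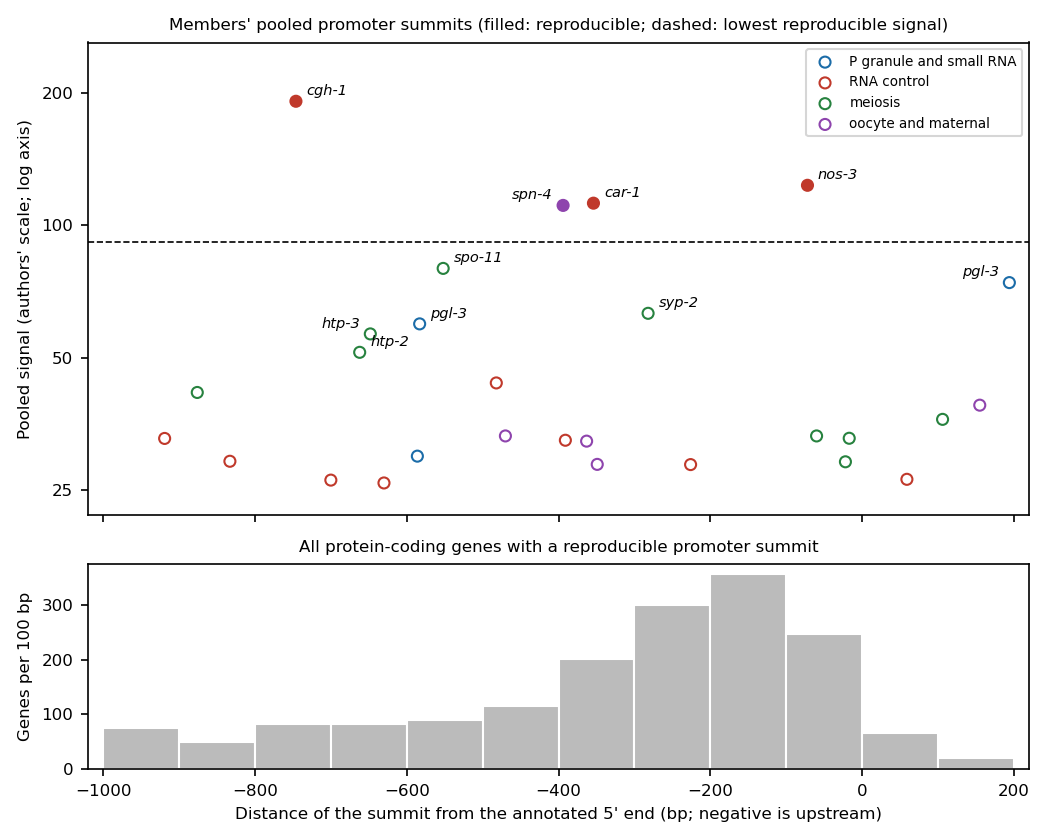
Upper panel, authors' signal of the 41 genes' pooled promoter summits (y axis) against distance from the 5' end (bp, x axis, negative is upstream), filled where reproducible, with the lowest reproducible signal of 91.73 dashed; lower panel, number of all 1691 genes with a reproducible promoter summit per 100 bp of that distance. Over all genes the fullest bin, with 357 genes, is 100 to 200 bp upstream, while the filled points lie at 72, 354, 394 and 746 bp upstream.

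Summits inside the genes but outside their own promoter windows were counted after the promoter results were known. None of the 41 genes held a reproducible one, against 2.13% of all genes. In the pooled list 33 of 41 (80.5%) held at least 1, against 41.1%, and the counts were 29 (70.7%), against 42.3%, in replicate 1 and 33 (80.5%), against 42.4%, in replicate 4. Per length the genes held 82 pooled summits in 125.6 kb, or 0.653 per kb, against 0.27 per kb over all genes. The densities were 0.533 against 0.248 per kb in replicate 1 and 0.629 against 0.282 per kb in replicate 4, so both replicates ran the same way. Of 94 further germline genes, taken by symbol from a longer list of the same functions, 66 (70.2%) held a pooled summit in the gene body, at 0.443 per kb, so that their values lay between those of the 41 genes and of all genes. The pooled regions in the 41 genes were weaker than the strongest 2328 of the pooled list. This adds nothing to the absence of reproducible ones, since the reproducible promoter summits named here had the same rank in both lists.

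Of the 82 pooled summits 65 (79.3%) lay in coding sequence, against 57.5% over all genes. The genes are themselves richer in coding sequence, at 59.4% of their length, against 38.3%, and longer, with a median of 2542 bp, against 2027 bp. Counted per kb of coding sequence, the density was 0.871 for coding summits in the 41 genes, against 0.622 in the further germline genes and 0.405 over all genes. The part of transcription, base composition or mapping in this density was not tested, and the capped lists include background.

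By function, all 12 oocyte and maternal genes held a pooled summit in the gene body (0.774 per kb), as did 8 of 9 P granule and small RNA genes (0.946 per kb), 7 of 10 RNA control genes (0.546 per kb) and 5 of 9 meiotic genes (0.377 per kb). The strongest were in spn-4 (86.05, rank 2648), pgl-1 (85.55, rank 2667), car-1 (84.17, rank 2740, in its 3' untranslated sequence) and cgh-1 (76.02, rank 3321). prg-1 and csr-1, which had no promoter summit in any list, held 6 each. In replicate 1, cgh-1 (rank 1206), pie-1 (1860), csr-1 (1946) and oma-1 (2143) had a gene-body summit within the strongest 2328, and in replicate 4 spn-4 did (1727). No gene was in both of these sets. The share of all genes at this cut was not counted, so the sets and their lack of overlap are descriptions only.

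**Figure D5:**
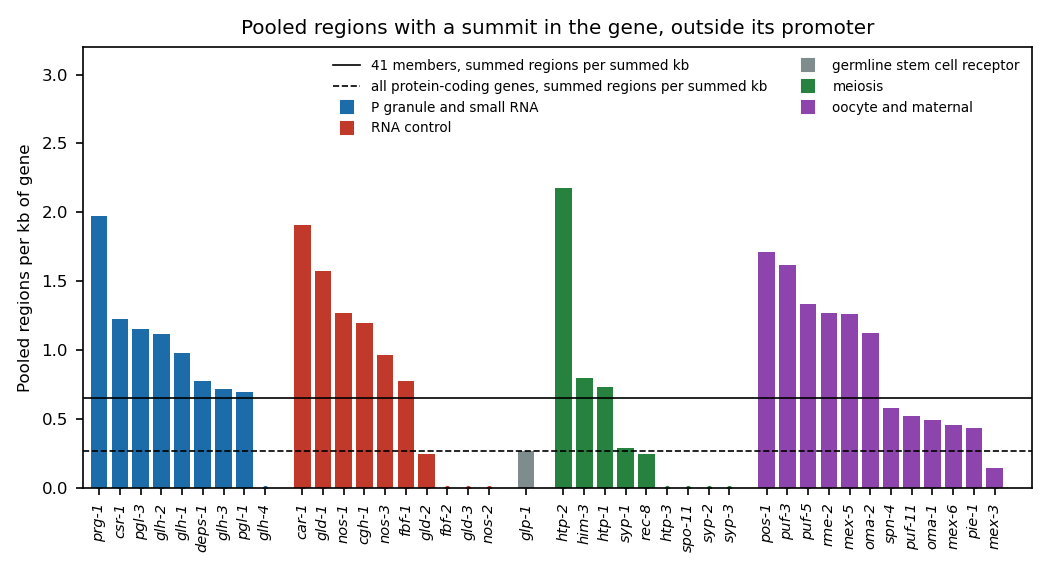
Pooled summits per kb inside each of the 41 genes and outside its promoter window (bars, coloured by function), with the density over the 41 genes (0.653, solid line) and over all genes (0.27, dashed line). htp-2, prg-1 and car-1 have the tallest bars (2.18, 1.97 and 1.91 per kb), and glh-4, gld-3, fbf-2, nos-2, htp-3, syp-2, syp-3 and spo-11 have none.

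Further genes of the same functions were read from a longer list, of which 94 were matched by symbol. In these, 14 (14.9%) had a reproducible promoter summit, against 8.47% of all genes, and 47 a pooled one, against 39.2%. By function the counts were 1 of 17 for P granules and small RNA, 2 of 13 for RNA control, 0 of 4 for the stem cell receptor pathway, 5 of 34 for meiosis and 6 of 26 for oocytes and maternal RNA. All 4 genes of the receptor pathway had a pooled promoter summit, against 39.2% of all genes, while glp-1 itself had none. They comprise the ligand genes lag-2 and apx-1 and the genes lag-1 and sel-8 of the nuclear complex that GLP-1 acts through. Their pooled ranks were 24189, 12470, 19883 and 3534, in that order. They have 1, 6, 3 and 2 annotated 5' ends, against 1 for glp-1, and more ends can widen the window. So few genes cannot be set apart. Both lists were chosen with earlier results of these data known, so the difference between them is a description.

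The strongest of these summits exceeded those of the 41 genes. egg-5, a gene of the change from oocyte to embryo, ranked 21 (556.5) and larp-1, an RNA-binding La-related gene, 25 (539.6). mex-1, a maternal zinc finger gene, ranked 89 (370.8) and atx-2, an ataxin-related gene of germline translation, 101 (359.6). The polarity gene par-2 ranked 360 (234.1). That summit was 662 bp upstream of par-2 but 162 bp from kbp-4. It lay in the 5' untranslated sequence of rab-18, 36 bp from the 5' end of that gene. The egg-5 summit lay within 200 bp of a spliced leader RNA gene, sls-2.4. The mex-1 summit was 928 bp upstream but 165 bp from W03C9.5, and the larp-1 summit 658 bp upstream but 331 bp from wip-1. In 5 of the 17 reproducible promoter summits of these 14 genes the nearest 5' end was that of another gene.

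Of the 5 meiotic genes, xnd-1, a chromatin gene that sets crossover positions, ranked 417 (221.1), brc-1, the BRCA1 relative, 685 (177.8), mre-11, a gene for processing of breaks, 697 (176.3) and rad-51, the strand exchange gene, 1103 (138.5). syp-4, a synaptonemal complex gene, ranked 1510 (117.3), but 28156 in replicate 1 (14.17) and 885 in replicate 4 (102.9), and its summit lay within 200 bp of the snRNA gene H27M09.6. The xnd-1 summit was 675 bp upstream but 296 bp from madf-11. That of mre-11 was 88 bp upstream and 160 bp from wdr-5.3, and that of syp-4 255 bp upstream and 297 bp from H27M09.5. None of the 9 meiotic genes of the main list had a reproducible promoter summit. Their strongest, spo-11 at rank 3020, thus ranked behind all 5 by the way the 5 were chosen, which is no comparison of the 2 sets. The remaining genes were the centriole kinase gene zyg-1 (rank 837), ego-1, an RNA-directed RNA polymerase gene of small RNA pathways (1568), the kinase gene mbk-2 (2011) and the polarity kinase gene par-1 (2302). The zyg-1 summit was 138 bp from zyg-1, 140 bp from F59E12.17 and 324 bp from sam-4, in the promoters of all of them. With the strongest 2328 regions of replicate 1 alone, syp-4, mbk-2 and par-1 were lost and cbd-1 was added, and with those of replicate 4 alone ego-1 and par-1 were lost.

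The window of atx-2, at chrIII:10461288-10461388 on the plus strand, and that of mex-1, at chrII:11967659-11967759 on the plus strand, are given for comparison with the windows of nos-3, cgh-1 and spn-4, since both had much stronger summits.
atx-2: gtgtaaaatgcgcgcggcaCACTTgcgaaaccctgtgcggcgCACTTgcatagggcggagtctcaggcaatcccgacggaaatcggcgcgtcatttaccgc
mex-1: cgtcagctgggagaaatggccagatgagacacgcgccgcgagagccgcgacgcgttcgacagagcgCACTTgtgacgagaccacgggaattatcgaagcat
The atx-2 window held 2 matches to AAGTG and the mex-1 window 1, in capitals, and both were 60.4% G and C. The windows of egg-5 and larp-1, which ranked higher still at 21 and 25, held no match. Of the 14 genes' strongest windows 6 (42.9%) held a match, against 27.1% of all reproducible windows.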

How the data were processed

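ChIP-seq of 2 biological replicates of 1 group was read from 4 deposited region lists on build ce11, per the labels. For each region the authors deposited signal, on a scale that nothing states, and a −log10 q-value. The aligner, caller and IDR cutoff were not given in the sources used here. Reproducible and pooled lists use both replicates. The named control was not analysed here.

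Genes came from Ensembl release 115 and sequence from RefSeq, both WBcel235, the assembly of ce11. All coordinates fell within its chromosomes and are counted from 1. Promoter windows used the 5' ends of all transcripts of a protein-coding gene, and neighbouring windows overlap. Ranks order signal within a list. No test was run, since 1 group gives no contrast. Counting was tested on simulated summits.

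The members and lists were chosen with earlier results of these data known. Named in full were genes with a reproducible promoter summit, up to 3 further genes per function with the highest pooled signal, and genes sharing a reproducible summit, besides both transgene genes. Gene-body counts, neighbour orientation, motif shares and the alignment of the puf-3 and puf-11 windows (Biopython 1.88, local, match 1, mismatch −1, gap opening −2, extension −1) were added after the data were seen. Of 98 further genes, 4 (hrpl-2, fbf-3, rad-54 and puf-10) were not matched by symbol. Python 3.11.15, pandas 2.3.3 and matplotlib 3.10.9 were used.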

Additional observations from a re-analysis of the deposited data

How the results depend on the processing

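Of 37 alternative settings over 6 results, 26 left the value within its limit (1.5 times a count, or the replicate SD of 912.9 for the median rank) and 11 moved it. The count of 4 genes with a reproducible promoter summit stood against 8.47% of all genes. It dropped to 1 (cgh-1), against 4.91%, over the stronger portion of the reproducible list, split at its median rank. With 1 replicate left out, the other replicate's strongest 2328 regions stood in, and the count ran from 2 to 5. Without replicate 4 the 2 were car-1 and cgh-1, against 8.47%, and without replicate 1 spo-11 was added, against 8.08%. The count was 3 with 500 bp upstream (without cgh-1), against 6.64%, and 5 with 2000 bp (with pgl-3), against 11.2%. Of the 15 genes with promoter summits in both replicates, 9 were left with 500 bp, 6 with summits within 100 bp and 9 with regions overlapping by 50% of each. The share of all genes fell as well, from 26.4% to 18.5, 17.7 and 19.2%, in that order. The median pooled rank was 17188 with 500 bp, 11782 with 2000 bp, 11405 with overlap of the region in place of the summit and 7064 with the gene record's 5' end, and 8260 to 9551 with 1 replicate left out, so it carries little weight. The count of 14 further germline genes dropped to 9 with 500 bp, against 6.64% of all genes. It was 12 without either replicate, against 8.08% without replicate 1 and 8.47% without replicate 4. The pooled count of 18 ran from 12, against 25.7% of all genes, to 25, against 44.3%. The added gene-body count of 33, against 41.1%, ran from 25, against 23.7%, to 33. Apart from the narrower windows and shorter lists, the cause was not tested. No paired analysis was possible because there was 1 group. Depth is unknown, so an absent summit is not evidence that a gene was not bound.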
